A study of Saccharomyces cerevisiae with 12 samples.

Results

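The genes described here encode factors that build ribosomes in budding yeast, and the question was where the cohesin loader Scc2 was found at them after auxin was added to deplete the Mediator subunit Med14. Genes were chosen by name among the nuclear coding genes of the RefSeq R64 table: the numbered NOP, UTP, RRP and DBP genes, IMP3 and IMP4, and NSR1, CBF5, GAR1, ERB1, NUG1, NOG1, SOF1 and RRB1. This gave 72 genes of 6002. Their median coding span was 1510.5 bp, against 1200 bp over all nuclear coding genes. The choice by name also took in DBP2 and DBP5, RNA helicases known mainly for work on messenger RNA, DBP1, a relative of the translation initiation helicase Ded1, and 7 genes of the RNA exosome.

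Scc2, with Scc4, loads the cohesin ring onto chromosomes. Med14 is the scaffold subunit of Mediator, the coactivator of RNA polymerase II. Ribosome assembly starts in the nucleolus, where small nucleolar ribonucleoproteins (snoRNPs) modify and fold the ribosomal RNA precursor while a large particle, the small subunit processome, forms on it. GTPases, RNA helicases and scaffold proteins then mature the pre-60S particle, and the exosome trims RNA ends. The genes for these factors are transcribed by RNA polymerase II and are known as a co-regulated set that is high in growing cells and repressed on stress.

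The data are 6 chromatin immunoprecipitates, each with its own list of narrow peaks: 3 from cultures given 1 mM auxin and 3 from cultures whose labels give no treatment. All cells were W303 MATa with Scc2 carrying a Myc tag (SCC2-13MYC), Med14 carrying an auxin degron (MED14-AID*-6FLAG) and the F-box protein OsTIR1 integrated at ura3-1 (ADH1-OsTIR1). They were held in alpha-factor, released into nocodazole for 2 hours to reach mitotic arrest, and fixed for 30 minutes. Fission yeast cells with Myc-tagged Mis4 were mixed in at 1 to 4 for calibration. The labels repeat the protocol with auxin for every sample, so the groups rest on the title and treatment labels. Since both groups carry the degron and OsTIR1, and no cells without the degron were analysed here, what auxin does on its own cannot be told apart from what losing Med14 does.

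The lists held 964, 1324 and 1569 peaks with auxin, against 2115, 2111 and 1502 without auxin. No-auxin list 3 stood apart from the other no-auxin lists. The median fold enrichment that the authors' peak caller gave to its peaks was 2.54, against 1.70 and 1.67 in no-auxin lists 1 and 2, whereas the auxin lists had 3.93, 2.83 and 2.57. Sequencing depth is unknown, and the absence of a peak means that the caller reported none, which does not show that Scc2 was missing. A peak counted as being in a coding span, or in the 500 bp upstream of the start codon, when it overlapped that window by 1 base or more. Every coordinate is on sacCer3.

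Scc2 peaks were found in the coding span of 22 of the 72 genes in at least 1 list. With auxin 4, 5 and 6 genes had one, or 5.0 ± 1.0 genes (SD, n = 3). Without auxin 16, 20 and 6 genes had one, or 14.0 ± 7.2 genes (SD, n = 3). The groups met at 6 genes, in auxin list 3 and no-auxin list 3. These 2 lists are also alike in number of peaks and median fold, and they shared 5 of their 6 genes: NOP1, NSR1, RRP6, GAR1 and UTP23. Without no-auxin list 3, the no-auxin mean was 18.0 ± 2.8 genes (SD, n = 2). Over all nuclear coding genes, 7.93%, 12.4% and 15.2% had a span peak with auxin, against 24.9%, 25.0% and 17.0% without auxin. For the assembly factor genes it was 5.56%, 6.94% and 8.33% with auxin, against 22.2%, 27.8% and 8.33% without auxin. The assembly factor genes were below the share for all coding genes in each list except no-auxin list 2, where they were above it. No test was made of that difference.

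Ribosomal protein genes, whose products the assembly factors handle, had span peaks far more often without auxin. Of 76 genes for large subunit proteins, 5, 15 and 20 had one with auxin, against 74, 73 and 70 without auxin. Of 56 for small subunit proteins, 2, 8 and 11 had one with auxin, against 53, 53 and 49 without auxin.

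**Figure D1:**
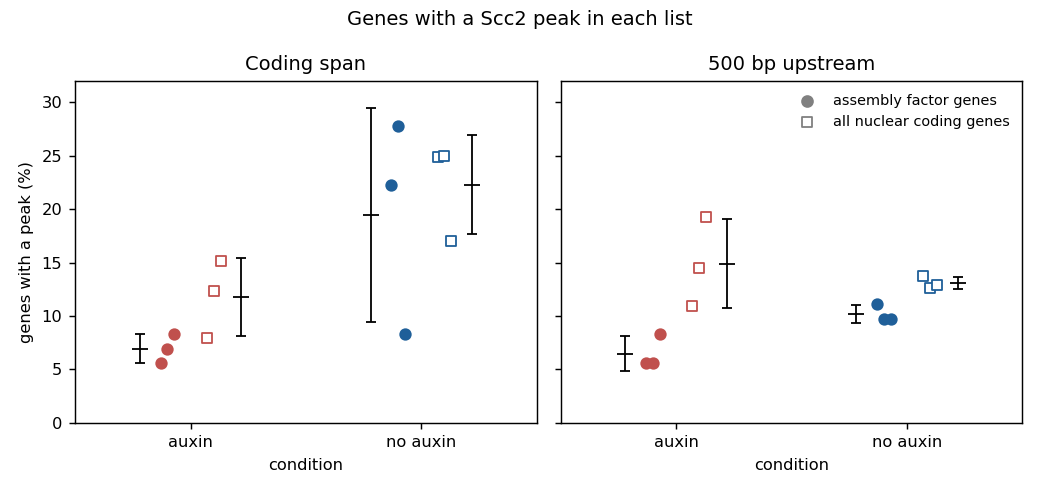
Share of genes with a Scc2 peak in the coding span (left) or the 500 bp upstream (right), with auxin and without, for the 72 assembly factor genes (filled circles) and all 6002 nuclear coding genes (open squares). Each point is a list and the bars beside them are mean ± SD (n = 3). In the coding span the assembly factor genes reached 22.2% and 27.8% in no-auxin lists 1 and 2, and 8.33% in no-auxin list 3, the same as in auxin list 3.

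A span peak in at least 2 no-auxin lists was found at 15 of the 72 assembly factor genes, or 20.8%, close to the 22.4% of all nuclear coding genes. Of these 15, 4 also had a span peak in at least 2 auxin lists and are here called kept: NOP1, NSR1, RRP6 and UTP20. That is 26.7%, against 38.6% of all coding genes with a peak in at least 2 no-auxin lists. The order of these shares turns with the lists used: without no-auxin list 1, 3 of 5 assembly factor genes were kept, against 50.3% of all coding genes, and without no-auxin list 2 likewise 3 of 5, against 50.4%. The other 11, here called lost, were NOP58, NOP56, CBF5, NOG1, NOP2, NOP16, UTP23, UTP15, DBP2, DBP3 and DBP9. Only NOP58 and UTP23 among these 11 had a span peak in no-auxin list 3, so the loss of the other 9 rests on no-auxin lists 1 and 2. GAR1 had a span peak in at least 2 auxin lists and at most 1 no-auxin list, which makes it the 1 gained gene (1.39% of the 72, against 2.67% of all coding genes).

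The share of each coding span under peaks was tested gene by gene over all 6002 genes, by permuting the 6 lists exactly (two-sided, difference in means). With 3 lists against 3 the smallest exact p is 0.1, so no gene can pass 0.05, and the smallest value after Benjamini-Hochberg adjustment over all genes was 0.862. The count given is therefore of genes whose groups do not overlap. Coverage was lower in every auxin list than in every no-auxin list at 4 assembly factor genes, NOP1, NSR1, NOP58 and UTP23 (5.56%, against 9.98% of all coding genes). Without no-auxin list 3 it was lower at 13 (18.1%, against 16.3% of all coding genes with the same lists). No assembly factor gene was higher in every auxin list, against 1.62% of all coding genes. Averaged over the 72 genes, peaks covered 2.67 ± 0.715% of the span with auxin and 8.48 ± 3.31% without auxin (SD, n = 3 each). Over all nuclear coding genes these means were 5.64 ± 1.78% with auxin and 12.1 ± 2.11% without auxin (SD, n = 3 each).

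**Figure D2:**
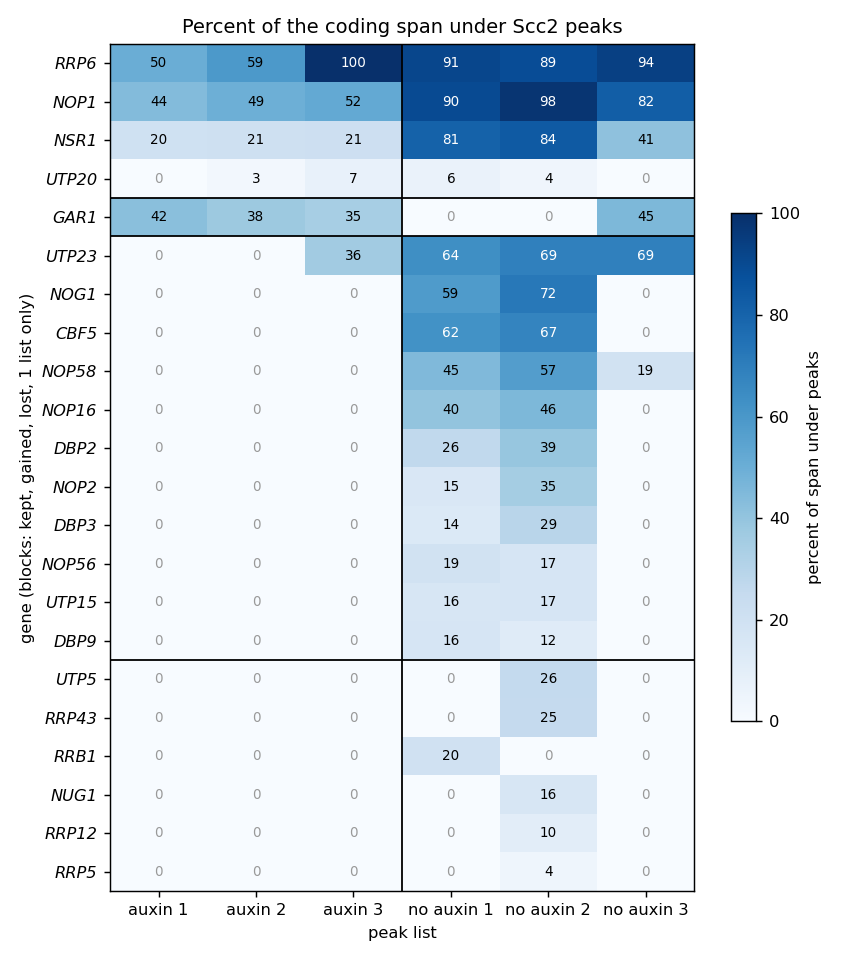
Percent of the coding span under Scc2 peaks in each list (columns, auxin left of no auxin) for the 22 assembly factor genes with a span peak in any list. Horizontal lines divide kept, gained and lost genes and those with a peak in 1 list only. In the auxin lists values above 0 stand in the rows of RRP6, NOP1, NSR1 and GAR1 and, in some lists, UTP20 and UTP23, and the column of no-auxin list 3 has 6 genes above 0, like that of auxin list 3.

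Of the genes for box C/D snoRNP proteins, NOP1 kept its peak and NOP58 and NOP56 lost theirs. NOP1 (YDL014W, chromosome IV, 427364 to 428347) encodes fibrillarin, the 2′-O-methyltransferase that box C/D snoRNAs guide. Peaks covered 43.9%, 49.3% and 52.1% of its span with auxin, against 89.6%, 97.9% and 82.4% without auxin. The groups did not overlap, at 48.4 ± 4.18% with auxin and 90.0 ± 7.73% without auxin (SD, n = 3 each), and the exact permutation p was 0.1 (0.862 after adjustment). With auxin the peaks lay over the start of the gene. They ended 432, 485 and 513 bp after the start of the coding span, against 892, 970 and 811 bp without auxin. They also reached upstream of the start codon, to -57, -92 and -69 bp, in each auxin list, and to -74 bp in no-auxin list 3, while those of no-auxin lists 1 and 2 started at 11 and 8 bp. Summits stood at 143, 141 and 115 bp with auxin, against 159, 447 and 134 bp without auxin. By the authors' p-values, the NOP1 peak was among the strongest 7.01% of each auxin list, and ranked at 32.01%, 24.8% and 3.93% of the no-auxin lists.

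NOP58 (chromosome XV, 896825 to 898360) and NOP56 encode the paired core proteins of the same particles. At NOP58 no auxin list had a peak, and peaks covered 44.9%, 57.4% and 18.8% of the span in the no-auxin lists (exact permutation p = 0.1, adjusted 0.862). Its summits lay in the second part of the gene, 1213, 1092 and 1043 bp into a span of 1536 bp. The peaks ran from 664 to 1352, 407 to 1287 and 833 to 1120 bp. At NOP56 there was again none with auxin, and 18.9%, 16.7% and 0% without auxin, so that the groups overlapped (exact permutation p = 0.4, adjusted 1.0). The peaks of no-auxin lists 1 and 2 at NOP56 overlapped by a short stretch only, with summits 618 and 773 bp into the span. RRP9, a protein of the U3 snoRNP, had no peak in any list.

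In the box H/ACA snoRNP, which pseudouridylates ribosomal RNA, the gene of the catalytic subunit had peaks in no-auxin lists only, and that of an accessory subunit had them in each auxin list. CBF5 (chromosome XII, 506134 to 507585), the pseudouridine synthase gene, had no peak with auxin, and 62.2%, 67.3% and 0% of its span was covered without auxin (exact permutation p = 0.4, adjusted 1.0). GAR1 (YHR089C, chromosome VIII, 282681 to 283298) had 42.2%, 37.5% and 34.6% of its span under peaks with auxin, against 0%, 0% and 45.5% without auxin. The groups overlapped, since no-auxin list 3 had the highest value of all. The means were 38.1 ± 3.84% with auxin and 15.2 ± 26.3% without auxin (SD, n = 3 each), and the exact permutation p was 0.4 (1.0 after adjustment). All 4 GAR1 peaks lay over the last part of the gene, with summits 458, 493 and 483 bp into the 618 bp span with auxin and at 486 bp in no-auxin list 3. NOP10 had no peak in any list.

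For factors of the small subunit there were 30 genes. With auxin 1, 2 and 3 of them had a span peak, against 4, 5 and 2 without auxin. Over all nuclear coding genes 7.93%, 12.4% and 15.2% had one with auxin, against 24.9%, 25.0% and 17.0% without auxin. The difference between these sets was not tested. No peak in the span or upstream in any list was found at 21 of the 30 genes. The same share over all coding genes is not given here, so this count is not read as a trait of the 30 genes. NSR1 (YGR159C, chromosome VII, 806412 to 807656), the yeast nucleolin, had 20.2%, 20.6% and 21.4% of its span covered with auxin, against 80.8%, 83.7% and 41.1% without auxin. The groups did not overlap, at 20.7 ± 0.579% with auxin and 68.5 ± 23.8% without auxin (SD, n = 3 each), and the exact permutation p was 0.1 (0.862 after adjustment). With auxin the peaks lay at the end of the gene. They started 977, 951 and 927 bp into the span of 1245 bp, against 138, 183 and 687 bp without auxin. Summits stood at 1099, 1076 and 1099 bp with auxin, against 630, 849 and 1081 bp without auxin. The peak of no-auxin list 3 was thus of a length between those of the auxin lists and those of the other no-auxin lists.

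UTP23, for a processome component, had 0%, 0% and 35.9% of its span covered with auxin, against 63.7%, 69.0% and 68.8% without auxin, with no overlap of the groups (exact permutation p = 0.1, adjusted 0.862). Its no-auxin peaks ran on past the stop codon into DNL4, and in no-auxin lists 1 and 2 their summits lay within DNL4. With the summit required in the span, UTP23 had a peak in no-auxin list 3 and auxin list 3 only, and 14 genes in place of 15 had a peak in at least 2 no-auxin lists. At UTP15 the coverage was 0% in each auxin list, against 16.1%, 16.7% and 0% without auxin, and the peaks of no-auxin lists 1 and 2 lay in different places, with summits 528 and 1219 bp into the span. UTP20, the longest of the 72 genes at 7482 bp, had 0%, 2.67% and 7.404% covered with auxin, against 6.46%, 4.29% and 0% without auxin, and counted as kept. Its span peaks all lay in the last part of the gene, from 6680 bp on. UTP5 had a peak in no-auxin list 2 alone.

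**Figure D3:**
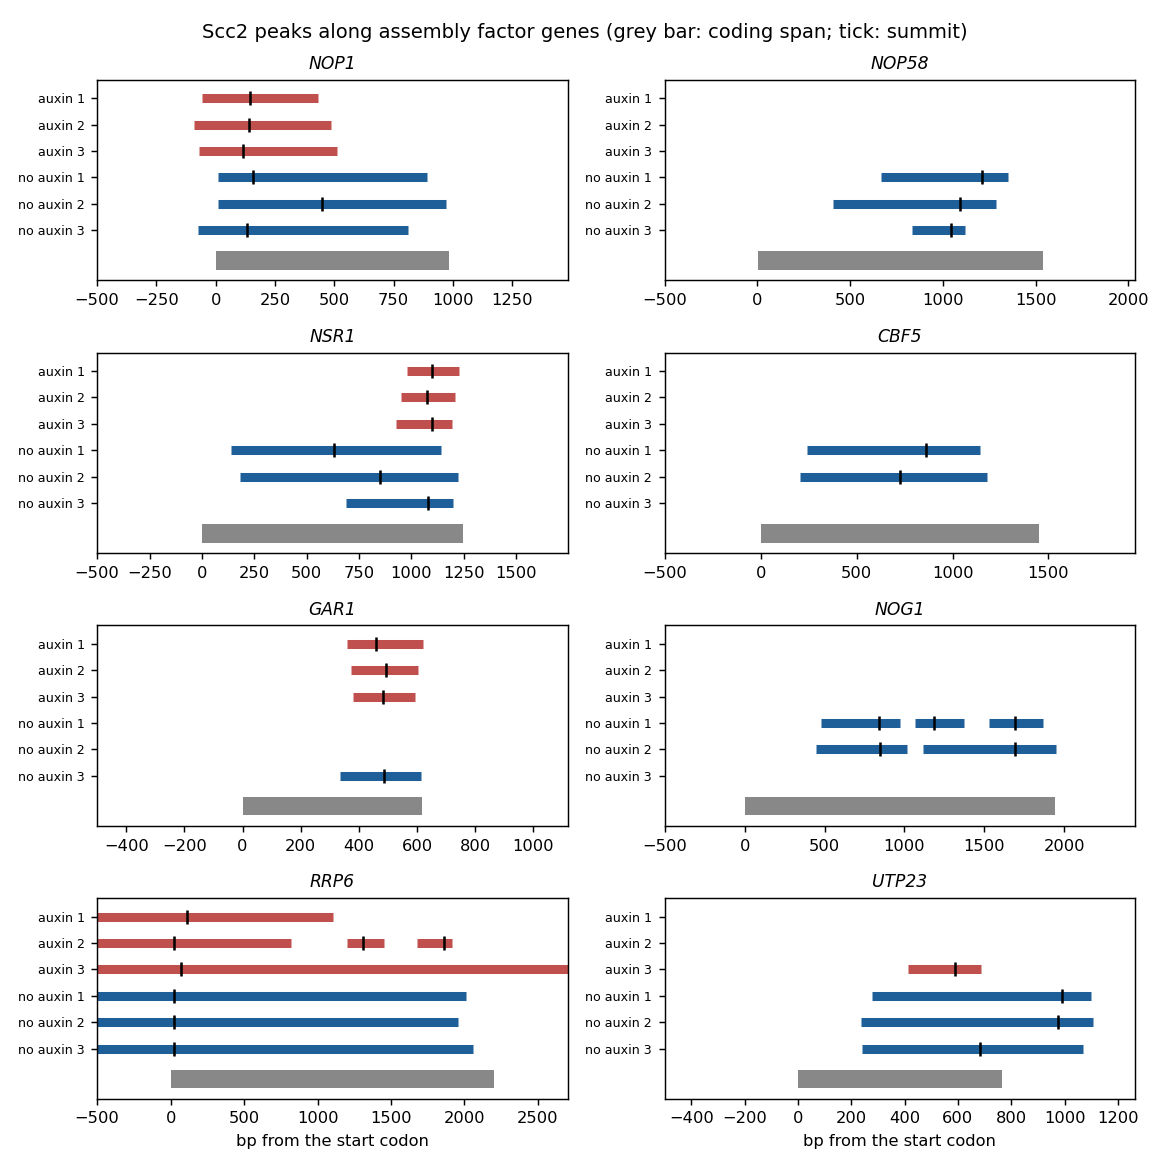
Peaks along 8 genes, by distance in bp from the start codon, in each of the 6 lists (auxin above no auxin). Bars are peaks cut at 500 bp beyond the span, black ticks are summits, and the grey bar is the coding span. At NOP1 the auxin peaks sit over the first part of the gene, at NSR1 and GAR1 over the last part, and at NOP58, CBF5 and NOG1 no auxin list has a peak.

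Of 22 genes for large subunit factors, 0 had a span peak in any auxin list, against 6, 6 and 0 in the no-auxin lists, and 5 were lost. The 6 genes are 27.3% of the 22, near the 24.9% and 25.0% of all coding genes in no-auxin lists 1 and 2. No-auxin list 3 held none, like the auxin lists. Over all coding genes 17.0% had a span peak in no-auxin list 3, and 7.93%, 12.4% and 15.2% in the auxin lists. Of all 6002 coding genes 827 were lost. These differences were not tested. NOG1, a GTPase of the pre-60S particle (chromosome XVI, 370978 to 372921), had the widest coverage, at 58.6% and 72.0% in no-auxin lists 1 and 2. NOP16, a pre-60S factor, had 40.2% and 45.7%, and NOP2, a 25S ribosomal RNA methyltransferase, had 14.9% and 35.3%. The helicase genes DBP3 and DBP9 had 13.9% and 29.3%, and 16.5% and 11.9%. The exact permutation p was 0.4 (adjusted 1.0) at each of these 5 genes, since all were at 0 in no-auxin list 3. NUG1 and RRB1, for another GTPase and for the chaperone of ribosomal protein Rpl3, had a peak in a single no-auxin list each. ERB1, NOP4, NOP7, NOP15 and RRP1 were among the 12 with no peak in the span or upstream in any list. The same share over all coding genes is not given here, so the 12 are not read as a trait of large subunit factors.

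Among the rest, RRP6, the nuclear exosome's 3′ to 5′ exonuclease gene (YOR001W, chromosome XV, 326832 to 329033), had the highest coverage, at 50.1%, 59.4% and 100% with auxin, against 91.2%, 88.7% and 93.6% without auxin. The groups overlapped, at 69.8 ± 26.5% with auxin and 91.2 ± 2.43% without auxin (SD, n = 3 each), with an exact permutation p of 0.4 (1.0 after adjustment). RRP6 is the first coding gene on the right arm and borders the gap between the arms that holds the centromere, and the peak that covers its start also covers the whole 500 bp upstream in all 6 lists. The other exosome genes had no span peak, except RRP43 in no-auxin list 2. DBP2 had 26.3% and 39.2% covered in no-auxin lists 1 and 2 and 0% in the other 4 lists. RRP5 and RRP12, for factors of both subunits, had a peak in no-auxin list 2 alone.

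Kept peaks were more frequent near centromeres and tRNA genes, over all coding genes. Of the 4 kept assembly factor genes, UTP20 and RRP6 lie within 5 kb of the gap between chromosome arms, and UTP20 lies 480 bp from a tRNA gene. NOP16, also within 5 kb of the gap, lost its peak. Of all nuclear coding genes there with a span peak in at least 2 no-auxin lists, 70 of 92 were kept, and of those within 1000 bp of a tRNA gene 111 of 153. Away from both, 344 of 1107 coding genes were kept, or 31.1%, and 2 of 12 assembly factor genes, or 16.7%, NOP1 and NSR1. These differences were not tested.

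Of 29 peaks in the spans of the lost genes in no-auxin lists, 22 ranked below the middle of the list by the authors' p-values (75.9%), and the strongest of them stood at 36.5%. Over all lost coding genes 62.1% of such peaks ranked below the middle. At the kept assembly factor genes 5 of 12 no-auxin peaks did (41.7%), against 37.0% over all kept coding genes. No test was made of these differences. With each list cut to its 964 strongest peaks, 4, 4 and 3 assembly factor genes had a span peak with auxin, against 5, 7 and 4 without auxin, and the groups overlapped. NOP1, NSR1 and RRP6 were kept with these shorter lists, 3 of the 6 genes with a peak in at least 2 no-auxin lists (50.0%, against 45.4% of all coding genes). GAR1 had a peak in all 3 auxin lists and no-auxin list 3. Of the 4 genes with lower coverage in every auxin list NOP1 was left (1.39%, against 5.75% of all coding genes). Over all nuclear coding genes 7.93%, 8.80% and 9.41% had a span peak with auxin in these shorter lists, against 11.7%, 12.01% and 10.96% without auxin.

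**Figure D4:**
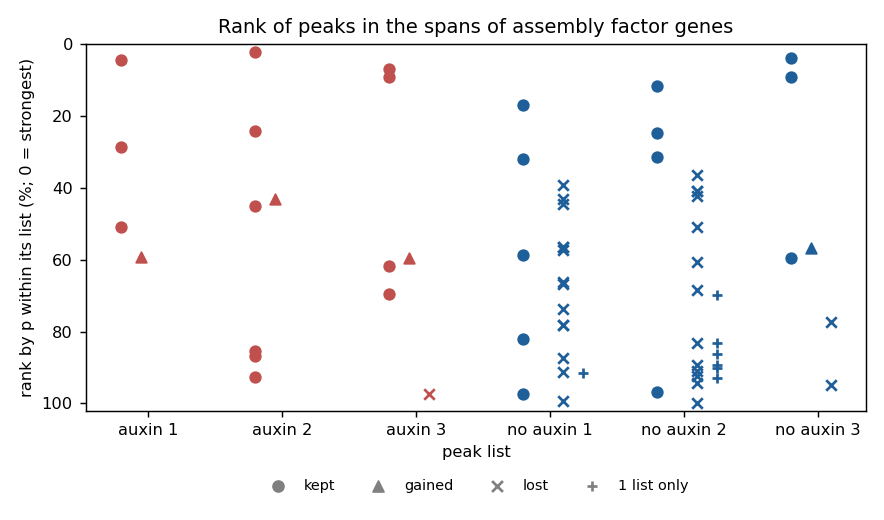
Rank by the authors' p-value, as a percentage of the peaks in the list with the strongest at the top, of each peak in the span of an assembly factor gene, by list (auxin left of no auxin). Circles are peaks at kept genes, triangles at GAR1, crosses at lost genes and plus signs at genes with a peak in 1 list only. Crosses start at 36.5% and lie mostly below the middle of no-auxin lists 1 and 2. Lists differ in length, so ranks are read within a list.

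Along the genes, no-auxin coverage was high in the middle and towards the end and low around the start codon. With the span divided into 10 equal parts, coverage in the seventh was 2.53 ± 1.34% with auxin and 11.7 ± 3.42% without auxin, averaged over the 72 genes (SD, n = 3 each). In the first it was 2.78% in each auxin list and 2.77 ± 0.134% without auxin (SD, n = 3). NOP1 and RRP6, the only assembly factor genes with a peak there in an auxin list, make up the auxin value. In the 200 to 100 bp before the start codon it was 1.398 ± 0.0160% with auxin (SD, n = 3) and 1.39% in each no-auxin list, nearly all of it from RRP6. Over all nuclear coding genes the seventh had 5.91 ± 2.02% with auxin and 14.2 ± 2.73% without auxin (SD, n = 3 each).

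**Figure D5:**
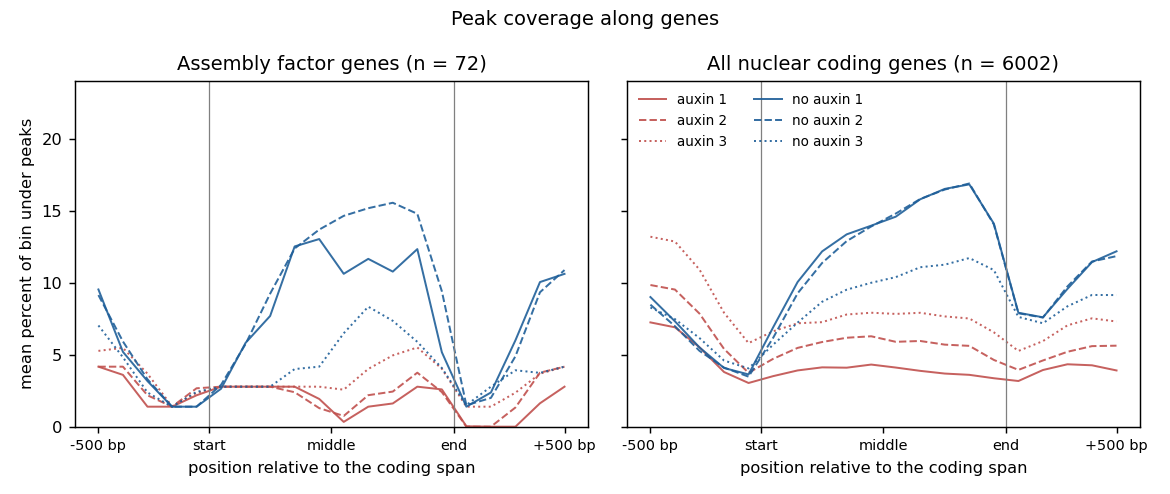
Mean percent of each bin under peaks, in 100 bp bins over the 500 bp before and after the coding span and in 10 equal parts of the span, for the 72 assembly factor genes (left) and all 6002 nuclear coding genes (right). Each line is a list, red with auxin and blue without. Over the assembly factor genes no-auxin lists 1 and 2 are highest in the later part of the span, with no-auxin list 3 and the auxin lists below them.

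In the 500 bp upstream, 4, 4 and 6 assembly factor genes had a peak with auxin, against 8, 7 and 7 without auxin (4.67 ± 1.15 genes with auxin and 7.33 ± 0.577 without auxin, SD, n = 3 each). Over all nuclear coding genes, 10.9%, 14.5% and 19.3% had one with auxin, against 13.7%, 12.7% and 12.9% without auxin. Of 36 peaks in the upstream windows of 12 assembly factor genes, 31 overlapped another gene, and 11 of the 12 genes had such a peak, the exception being NOP1. The same share over all coding genes is not given here, so the count is not read as a trait of the 72 genes. A peak in at least 2 no-auxin lists was found upstream of 6 genes (8.33%, against 12.5% of all coding genes), and 3 of them kept it (50.0%, against 63.1%): UTP22, UTP20 and RRP6. NOP1 had an upstream peak in at least 2 auxin lists and at most 1 no-auxin list (1.39% of the 72, against 6.48% of all coding genes), from the peak over its start described above.

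The upstream peaks of UTP22 and UTP20 overlapped tRNA genes. At UTP22 (start at 662358 on chromosome VII) they covered 34.2%, 40.4% and 38.8% of the window with auxin, against 26.6%, 25.2% and 28.4% without auxin, and all 6 overlapped the tRNA gene YNCG0027W, whose nearer end lies 538 bp upstream. UTP22 was the 1 assembly factor gene with higher upstream coverage in every auxin list (1.39%, against 4.38% of all coding genes; exact permutation p = 0.1, adjusted 1.0). At UTP20 all 6 upstream peaks overlapped the tRNA gene YNCB0006W, with summits between -507 and -493 bp from the start codon. Upstream coverage was lower in every auxin list at NOP12 and UTP30 (2.78%, against 2.87% of all coding genes). Upstream of NOP12, for a pre-60S factor, it was 0% in each auxin list, against 54.6%, 52.6% and 43.8% without auxin (exact permutation p = 0.1, adjusted 1.0), from peaks with summits in the ribosomal protein gene RPS15. Upstream of UTP30 it was 0% with auxin, against 27.8%, 32.8% and 21.0% without auxin (exact permutation p = 0.1, adjusted 1.0), from peaks with summits in TIF1, an initiation factor gene with a near-identical copy, TIF2. At NOP9 peaks of no-auxin lists 1 and 2 reached in from the chaperonin gene CCT8.

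Other genes of the same pathway were taken from 4 lists. Of 120 genes for RNA polymerase I subunits, other assembly factors and other snoRNP proteins, 19 had a span peak in at least 2 no-auxin lists (15.8%, against 22.4% of all coding genes) and 4 kept it (21.1%, against 38.6%). These 4 were MPP10, RLP7, SPB4 and LOC1, all within 5 kb of the gap between chromosome arms, where NOP1 and NSR1 do not lie. No gene of the 4 lists was gained, and 2, NOG2 and ARB1, had lower coverage in every auxin list (1.67%, against 9.98% of all coding genes). Of 14 RNA polymerase I subunit genes 0, 1 and 0 had a span peak with auxin, against 4, 4 and 0 without auxin. The genes of its largest subunits, RPA190 and RPA135, had none with auxin. Without auxin RPA190 was covered at 10.4%, 51.6% and 0%, and RPA135 at 29.1%, 54.6% and 0%. Of 41 other genes for the small subunit 1, 2 and 2 had a span peak with auxin, against 7, 8 and 2 without auxin. Of 55 genes on a list mainly for the large subunit 2, 4 and 4 had one with auxin, against 12, 11 and 6 without auxin. SNU13, whose protein binds box C/D snoRNAs beside the NOP56 and NOP58 products, was covered at 84.8%, 81.4% and 0% without auxin and not in any auxin list. Of 10 other snoRNP genes 1, 0 and 2 had one with auxin, against 1, 1 and 1 without auxin.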

How the data were processed

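Myc immunoprecipitates of Scc2 from 6 cultures were used. The 6 samples of total chromatin come with no peak list and were not analysed here. Per the submitters' processing notes, Bowtie2 2.4.2 and MACS2 2.1.1.20160309 were used with build sacCer3. How each tool was run, with which threshold and control, is not given in the sources used here. Each replicate has its own narrow peak list as deposited, with positions in base pairs, a fold enrichment (a ratio), −log10 p and −log10 q values and a score, which is 10 times −log10 q and was not used. Between lists, the lowest −log10 q ran between 2.31 and 2.76. Spike-in calibration does not enter any value here. Promoter and protein sequences were not used here.

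Gene positions came from the RefSeq table of assembly R64, and strand from systematic names. A coding span is the annotated span from start to stop codon, introns included. Overlaps, coverage and exact permutation tests over 20 assignments were computed with Python 3.11.15, numpy 2.4.6 and pandas 2.3.3 and tested on simulated data. Genes and lists were chosen with earlier results of these data known. Genes with a span or upstream peak in at least 2 lists of a condition were named, with values in each list for the 12 of highest mean coverage and for kept or gained genes. Neighbours share peaks, and lists of 1 group are separate cultures per the labels.

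The alternatives were lists of equal length, −log10 q of at least 5, other overlaps and windows, genes far from tRNA, snoRNA and snRNA genes, each list left out, the replicate block and, added after seeing the data, genes at least 5 kb from the gap between arms.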

Additional observations from a re-analysis of the deposited data

How the results depend on the processing

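The difference in genes with a span peak (auxin minus no auxin) was -9.0 genes and stayed below 0 under 14 alternatives, the replicate block among them. It was -1.67 with 964 peaks in every list, -4.33 with −log10 q of at least 5, and -13.0 to -6.0 when each list was left out in turn. The mean span coverage differed by -5.81 percentage points, and by -7.61 to -2.91 over 12 alternatives. The upstream difference of -2.67 genes was -1.0 with 964 peaks, -1.33 with −log10 q of at least 5, 0 with 250 bp, -5.67 with 1000 bp and -0.667 without bases of neighbouring coding genes, and it turned to 0.667 when the summit had to lie in the window. The cause was not tested. Genes with lower span coverage in every auxin list numbered 4, but 1 with 964 peaks and 4 to 13 with a list left out, the 13 being without no-auxin list 3, where fewer lists had to agree. The 1 gene is 1.39%, against 5.75% of all coding genes. With a list left out the shares were 5.56% to 18.1%, against 10.1% to 16.3% of all coding genes. Genes with lower upstream coverage numbered 2, but 1 with 964 peaks, 1 without neighbouring bases and 0 with 250 bp. Of 4 kept genes 2 remained, NOP1 and NSR1, among genes at least 5 kb from the gap between arms, and 3 to 4 with a list left out. The genes they are a share of numbered 15, but 5 without no-auxin list 1 or 2, 6 with 964 peaks and 9 with −log10 q of at least 5, so that the kept share was 4 of 15 with all lists and between 3 of 15 and 3 of 5 with a list left out. Coverage deviations of same-numbered lists correlated at -0.0975, 0.00650 and -0.0313 over genes, so no pairing by number was seen. Most genes have no peak in any given list, so these values could miss a pairing. With the replicate block the mean span difference is -9.0 genes by construction, and the differences within numbers 1, 2 and 3 were -12, -15 and 0 genes. Depth is unknown. The longest lists, no-auxin lists 1 and 2, had the lowest median fold enrichment, at 1.70 and 1.67. Whether list length accounts for the differences was not tested.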

Other observations

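NOP1, NSR1 and GAR1 have in common that their proteins carry repeats rich in glycine and arginine, at the start of Nop1, at the end of Nsr1 and at both ends of Gar1 (background, from general knowledge). Their auxin peaks lay over the start of NOP1 and the ends of NSR1 and GAR1, which was noticed after the values were seen. No sequence was used, so the other assembly factor genes were not searched for such repeats. That includes the lost genes, such as the helicase gene DBP2, with 0% of its span covered in each auxin list. The trait is therefore not shown to set these 3 genes apart from the lost ones. Whether the repeats have a part in where the peaks lay was not tested.

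The same feature was then looked at in 8 other genes whose proteins are known for arginine-glycine repeats, a list written after those peaks were seen and used as a description only. The list is not a full one and holds none of the 72 assembly factor genes. Of these 8 genes, 5 had a span peak in at least 2 no-auxin lists and all 5 kept it: NPL3, GBP2, DED1, HRB1 and STM1. At NPL3, a messenger RNA export factor with the repeats in its last part, peaks covered 48.3%, 58.7% and 59.2% of the span with auxin, against 93.6%, 92.6% and 92.0% without auxin, and the stronger of its auxin peaks had summits 929, 972 and 976 bp into a span of 1245 bp. Each auxin list also held a weaker NPL3 peak nearer the start, with summits at 269, 272 and 304 bp. In the no-auxin lists a single NPL3 span peak had its summit at 1020, 1055 and 944 bp, also in the last part. At GBP2, with the repeats near its start, the auxin peaks in the span had summits at 263, 233 and 253 bp of 1284 bp. In no-auxin lists 1 and 3 a GBP2 span peak had its summit at nearly the same place, at 239 and 238 bp. In no-auxin list 2 the summit was at 1033 bp, and no-auxin list 3 held another span peak with its summit at 988 bp. At DED1, a helicase with repeats near its end, the last auxin peak had its summit at 1672, 1726 and 1717 bp of 1815 bp, and auxin lists 2 and 3 held another peak nearer the start. In the no-auxin lists a single DED1 span peak had its summit at 1680, 1678 and 1740 bp. STM1 does not have its auxin summits near an end, at 156, 364 and 328 bp of 822 bp, and without auxin they stood at 398, 418 and 374 bp. HRB1, which lies within 5 kb of the gap between chromosome arms, had no peak in auxin list 1. In auxin lists 2 and 3 its summits lay in the middle of the gene, at 936 and 1015 bp of 1707 bp. Without auxin they stood at 658, 1625 and 952 bp. SBP1, PSP2 and SCD6 did not have a span peak in at least 2 no-auxin lists. Among all coding genes with such a peak, 38.6% kept it. The 8 genes were picked by hand and leave out the lost assembly factor genes, so their count cannot be compared with that share. Without auxin, mean span coverage was 92.7% at NPL3, 93.8% at DED1, 92.6% at STM1, 84.4% at GBP2 and 73.1% at HRB1. No test of the 8 genes was made.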
